A study of Sus scrofa with 6 samples.

Results

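The fatty acid set comprised 9 enzyme genes and 1 regulator, and each was the row of the deposited table whose gene symbol equalled its name, giving 10 of the 10915 genes with values. The genes were chosen with the differences between exosome and control libraries already known, so those differences are given as a description, and the counts of genes passing the test across all genes are printed for the set without being read as support. RNA was sequenced from primary porcine endometrial epithelial cells, the lining cells of the uterus, cultured to passage 3 from uteri collected at a slaughterhouse and grown in medium with serum. In the exosome group, cells received 10 µg per well of exosomes, small membrane vesicles that had been precipitated with a commercial reagent from the sperm-rich fraction of the seminal fluid of boars, and were kept for 48 h. The control group had no exosome treatment, and each group held 3 libraries. The labels do not say whether control wells received the carrier solution, nor do they give the breed or age of the animals or tell separate uteri from repeated wells. The spread between libraries may therefore be technical.

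Cells make fatty acids from acetyl-CoA, which ACLY cuts from citrate and ACSS2 forms from acetate. AACS activates acetoacetate, a ketone body, for lipid synthesis. ACACA carboxylates acetyl-CoA to malonyl-CoA, and FASN joins these units into palmitate. ELOVL6 lengthens palmitate, and SCD introduces the double bond that makes monounsaturated fatty acids such as oleate. FADS2 and FADS1 are the front-end desaturases that add double bonds to polyunsaturated fatty acids, while elongases lengthen them, and FADS1 makes arachidonic acid, from which the endometrium produces prostaglandins. Many of these genes are targets of the SREBP transcription factors. INSIG1 is both an SREBP target and the protein that retains SREBP with its escort SCAP in the endoplasmic reticulum when sterols are plentiful.

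RefSeq places the genes on several chromosomes of Sscrofa11.1, the build named in the submitters' processing notes. FADS2 (ENSSSCG00000013072) lies on chromosome 2 from 9633941 to 9666666 and FADS1 (ENSSSCG00000024015) on the same chromosome from 9735425 to 9747405, with the related FADS3 beside them from 9607627 to 9627352. SCD (ENSSSCG00000010554) is on chromosome 14 from 111461560 to 111478033, and AACS (ENSSSCG00000009755) is on the same chromosome from 28109845 to 28169261. FASN (ENSSSCG00000029944), ACLY (ENSSSCG00000017421) and ACACA (ENSSSCG00000017695) share chromosome 12, at 922405 to 937560, 20796678 to 20841301 and 38580916 to 38875067. ELOVL6 (ENSSSCG00000025541) is on chromosome 8 from 112038670 to 112190079, ACSS2 (ENSSSCG00000007286) on chromosome 17 from 38260152 to 38315764 and INSIG1 (ENSSSCG00000016420) on chromosome 18 from 2885494 to 2898758. FADS2, ELOVL6 and ACACA overlap other RefSeq genes, 2 for FADS2 and 1 each for the others. The sources used here do not say whether reads were assigned by strand, so reads of an overlapping gene may be included in these 3 values.

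Values are FPKM, which are fragment counts scaled by transcript length and library size, a unit that allows levels to be compared between genes. In the control libraries SCD was the most abundant transcript of the set, at 197.3 ± 39.5 FPKM (SD, n = 3), above 95.0% of the 10846 genes tested. ELOVL6, ACLY and FASN followed at 104.0 ± 14.1, 88.1 ± 8.34 and 83.1 ± 5.14 FPKM, and each overlapped its neighbour in this order. The next 4 genes also overlapped in sequence: INSIG1 at 59.0 ± 11.05, ACACA at 45.6 ± 14.2, AACS at 30.2 ± 1.87 and FADS2 at 29.6 ± 5.34 FPKM. FADS1, at 19.3 ± 1.10 FPKM, lay below all of these in every control library. ACSS2 was far lower, at 2.73 ± 0.295 FPKM, above only 11.2% of genes.

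**Figure D1:**
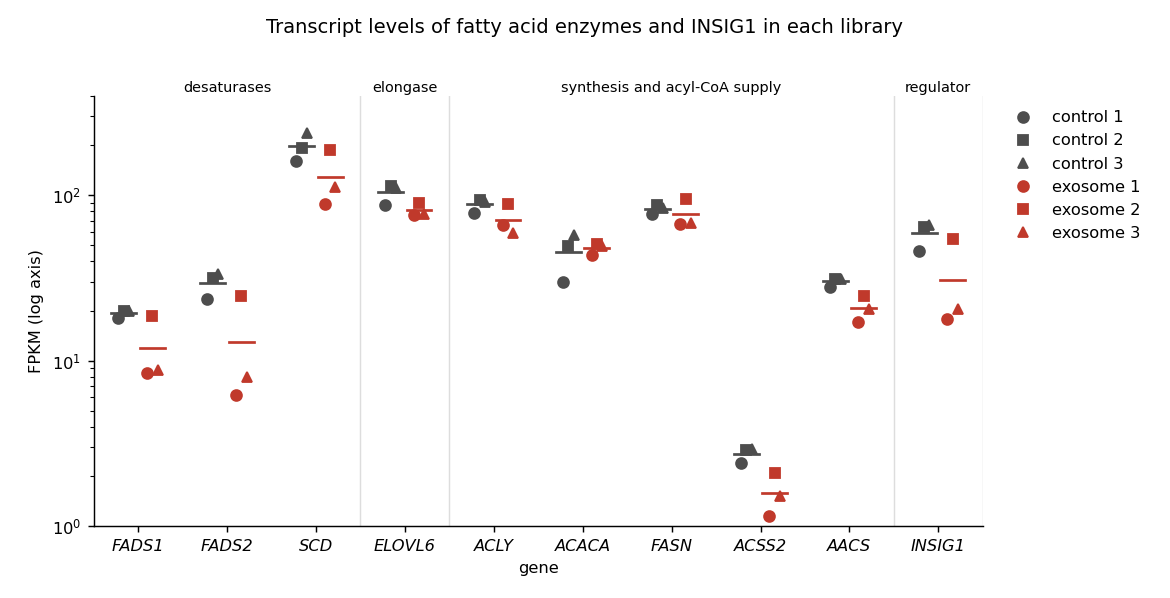
FPKM of the 10 genes on a log axis, with 1 point per library, grey for control and red for exosome, the marker shape giving the replicate and each bar the mean of 3 libraries. Exosome replicate 2 is the highest exosome library for all 10 genes, and the red points of FADS1, FADS2, SCD and INSIG1 spread most widely.

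Transcripts of the desaturases were lower in the exosome libraries, but only in 2 of the 3. FADS2 was at 23.5, 31.7 and 33.6 FPKM in control replicates 1, 2 and 3, and at 6.22, 24.6 and 8.02 FPKM in exosome replicates 1, 2 and 3. Exosome replicates 1 and 3 thus held 21.0% and 27.1% of the control mean, whereas replicate 2 held 83.2% and lay above control replicate 1. The log2 change of FADS2, exosome minus control on the log2(FPKM + 1) scale, was -1.35 with a standard error of 0.42, the second most negative of all genes tested and the most negative of the set.

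FADS1 was likewise low in exosome replicates 1 and 3, over a narrower range. Its controls were at 18.1, 20.1 and 19.9 FPKM and its exosome libraries at 8.45, 18.6 and 8.78 FPKM, a log2 change of -0.74 with a standard error of 0.25. The groups overlapped, because exosome replicate 2 was above control replicate 1. SCD was at 160.3, 192.6 and 238.9 FPKM in the controls and 88.5, 188.3 and 111.7 FPKM in the exosome libraries, a log2 change of -0.66 with a standard error of 0.26. Exosome replicates 1 and 3 of SCD held 44.9% and 56.6% of the control mean, and replicate 2 lay within the control range. Without exosome replicate 1 the log2 change of SCD was -0.42.

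ELOVL6, the single elongase of the set, differed less and varied less between exosome libraries. It was at 87.8, 113.3 and 110.9 FPKM in the controls and 75.9, 90.3 and 76.7 FPKM in the exosome libraries, a log2 change of -0.35 with a standard error of 0.11. The exosome libraries spanned 1.19-fold from lowest to highest, against 3.96-fold for FADS2, and exosome replicate 2 was above control replicate 1.

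Among the synthesis enzymes, the activators of acetate and acetoacetate are described apart from the others, a division that was not planned beforehand. ACSS2 was at 2.40, 2.88 and 2.93 FPKM in the controls and 1.15, 2.09 and 1.52 FPKM in the exosome libraries. AACS was at 28.0, 31.4 and 31.1 FPKM and at 17.0, 24.7 and 20.7 FPKM. These were the 2 genes of the set whose groups did not overlap, all 3 exosome libraries lying below all 3 controls, as they did for 10.4% of all genes. Their log2 changes were -0.54 and -0.53, with standard errors of 0.14 and 0.12. Because ACSS2 is scarce, the added 1 FPKM shrinks its change, and the log2 ratio of the group means without it was -0.79, against -0.54 for AACS.

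ACLY, FASN and ACACA overlapped between groups. ACLY was at 78.6, 94.1 and 91.7 FPKM in the controls and 66.5, 88.0 and 59.6 FPKM in the exosome libraries, with exosome replicate 2 inside the control range and the others below it. FASN was at 77.4, 87.4 and 84.3 FPKM and at 67.2, 95.1 and 67.8 FPKM, so that replicate 2 was the highest of all 6 libraries and replicates 1 and 3 the lowest. Their log2 changes were -0.32 and -0.13, with standard errors of 0.14 and 0.13. The size of both changes depended on which library was left out, although neither changed sign. The change of FASN was -0.046, -0.29 and -0.052 without exosome replicates 1, 2 and 3 in turn, and that of ACLY was -0.48 without exosome replicate 2 and -0.20 without exosome replicate 3.

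ACACA was the gene of the set without a negative log2 change (0.12, standard error 0.21). It was at 29.9, 49.5 and 57.5 FPKM in the controls and at 43.5, 51.1 and 49.1 FPKM in the exosome libraries, so the exosome libraries lay between control replicates 1 and 3. Its sign depended on control replicate 1, without which the log2 change was -0.16. It was 0.20 and 0.30 without control replicates 2 and 3, and 0.18 and 0.067 without exosome replicates 1 and 2. The reference table gives the symbol ACACA to another row of the deposited table, ENSSSCG00000017694, which the deposited table leaves unnamed, and no symbol to the row used here. That other row was at 15.1, 18.6 and 19.3 FPKM in the controls and 16.9, 21.7 and 15.1 FPKM in the exosome libraries, a log2 change of 0.01, and it did not pass (limma, adjusted p = 0.981). Neither row separated the groups.

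INSIG1, set beside the enzymes as the sterol-responsive regulator, was at 46.3, 64.4 and 66.4 FPKM in the controls and 17.9, 54.4 and 20.6 FPKM in the exosome libraries. Its log2 change was -1.07 with a standard error of 0.37. In exosome replicates 1 and 3 INSIG1 held 30.2% and 34.8% of the control mean, between FADS2 and FADS1, and in replicate 2 it held 92.2%.

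**Figure D2:**
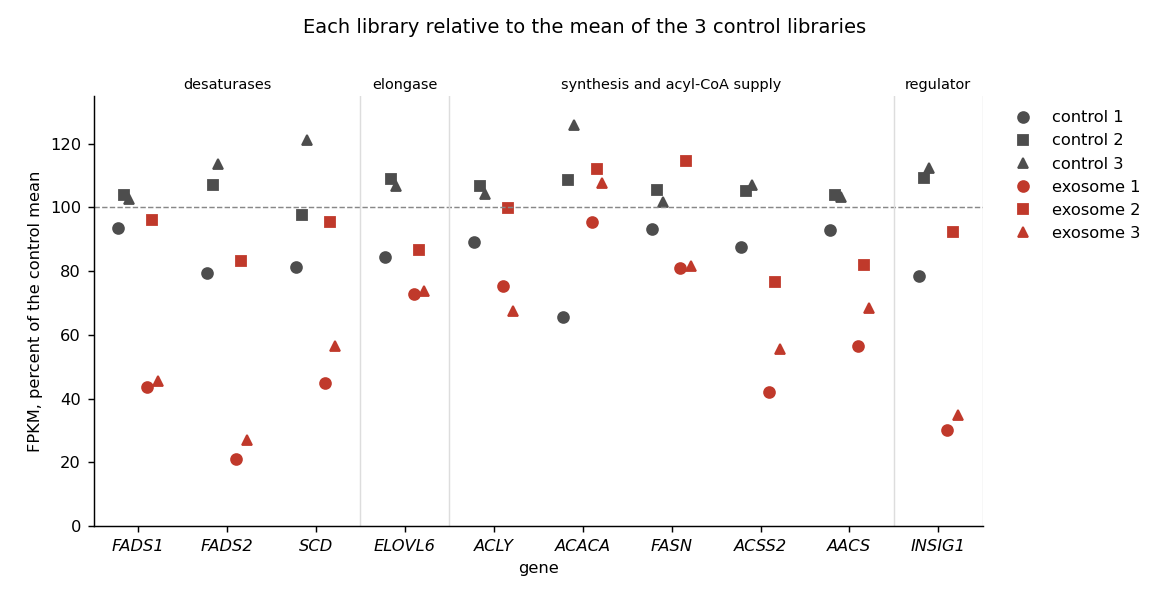
FPKM of each library as a percentage of the control mean of the same gene (dashed line at 100), with grey for control and red for exosome libraries. FADS2 at 21.0% and INSIG1 at 30.2% in exosome replicate 1 are the lowest points of their genes, while the exosome points of ACACA lie from 95.3% to 112.1%.

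Of the 10 genes, 0 passed an adjusted p of 0.05 in limma, as did 0% of all genes tested, against 7 lower at an unadjusted p under 0.05, where 7.5% of all genes were lower. Groups did not overlap, with exosome lower, for 2 of the 10 genes and for 10.4% of all genes. Without exosome replicate 2, 7 of the 10 passed in limma with a lower level (all but ELOVL6, FASN and ACACA), as did 1.88% of all genes. As these genes were chosen on this contrast, the counts describe them and lend them no support. The median log2 change of the 10 genes was -0.54, and that of all genes tested was -0.0023. In bulk RNA, fewer cells expressing a gene and less of its RNA per cell cannot be told apart.

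Desaturases and synthesis enzymes were then compared within each library as class means on the log2(FPKM + 1) scale, relative to the mean of the controls. The class mean of FADS1, FADS2 and SCD was at -1.43, -0.11 and -1.20 in exosome replicates 1, 2 and 3, and from -0.22 to 0.17 in the controls. The class mean of FASN, ACACA, ACLY, ACSS2 and AACS was at -0.46, -0.03 and -0.36 in the exosome libraries, and from -0.21 to 0.12 in the controls. Both class means of exosome replicate 2 thus lay within the control range, and those of replicates 1 and 3 lay below it. Averaged over libraries, the exosome group was at -0.92 for the desaturases (standard error 0.42) and -0.28 for the synthesis enzymes (standard error 0.17).

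As class means, the desaturases were lower than the synthesis enzymes in the same exosome libraries, which did not hold gene by gene. Without the added 1 FPKM, the exosome mean of ACSS2 was 58.0% of the control mean, below FADS1 at 61.7% and SCD at 65.6%. AACS was at 68.9%. FADS2, at 43.8%, was the lowest, and FASN and ACACA, at 92.3% and 105.0%, were the highest. On the log2(FPKM + 1) scale, the difference between the class means was -0.97, -0.09 and -0.84 in exosome replicates 1, 2 and 3. It was -0.02, -0.04 and 0.06 in the controls, a mean difference of -0.63 with a standard error of 0.28. All 3 exosome values lay below the controls, but replicate 2 did so by little. Without exosome replicate 2 the mean difference was -0.91, and without exosome replicate 1 it was -0.47. The split was not uniform within the synthesis class, which was divided here in a way not planned beforehand. ACSS2 and AACS together were at -0.79, -0.27 and -0.54, below the controls in every exosome library, whereas ACLY, ACACA and FASN together were at -0.24, 0.14 and -0.23, overlapping the controls. Each of ACSS2 and AACS already lay below all controls, as did 10.4% of all genes. Their joint separation follows from that and adds no support to the division. ACLY, with a log2 change of -0.32, lay between AACS and FASN, so the division is not a sharp one.

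Ratios of desaturase to FASN within a library also separated the groups, without reference to the library's total. They are built from the same values as the class means and are not separate support. FASN is a single synthesis enzyme, and its level in exosome replicate 2 was the highest of all 6 libraries, which lowers the ratios of that library. Ratios of the desaturases to the other synthesis enzymes were not examined, and the separation of replicate 2 need not hold for them. In that library FADS1 and SCD held 96.0% and 95.4% of the control mean. ACSS2 and AACS held less, at 76.5% and 81.8%, while ACLY and ACACA held more, at 99.9% and 112.1%. The ratio of FADS1 to FASN was 0.234, 0.230 and 0.236 in the controls, a spread of 0.00303 (SD), and 0.126, 0.195 and 0.130 in the exosome libraries. All 3 exosome ratios lay below the controls, replicate 2 included. The ratio of SCD to FASN was 2.07, 2.20 and 2.83 in the controls and 1.32, 1.98 and 1.65 in the exosome libraries, again without overlap. Against ELOVL6 the groups of SCD did overlap, with ratios of 1.83, 1.70 and 2.15 in the controls and 1.17, 2.09 and 1.46 in the exosome libraries. The ratio of FADS2 to FADS1 was 1.30, 1.58 and 1.69 against 0.736, 1.33 and 0.913, so exosome replicates 1 and 3 held more FADS1 than FADS2 while all other libraries held more FADS2.

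Set against INSIG1, FASN and FADS2 differed in opposite directions. The ratio of FASN to INSIG1 was 1.67, 1.36 and 1.27 in the controls and 3.76, 1.75 and 3.30 in the exosome libraries. The ratio of FADS2 to INSIG1 was 0.507, 0.492 and 0.506 in the controls and 0.348, 0.452 and 0.390 in the exosome libraries. In every exosome library, therefore, FASN was higher and FADS2 lower relative to INSIG1 than in any control. The other desaturases did not follow FADS2. The ratio of FADS1 to INSIG1 was 0.390, 0.312 and 0.299 in the controls and 0.474, 0.341 and 0.427 in the exosome libraries, and that of SCD to INSIG1 was 3.46, 2.99 and 3.60 against 4.96, 3.46 and 5.43. Both overlapped between groups and had a higher mean in the exosome libraries, as FASN did.

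**Figure D3:**
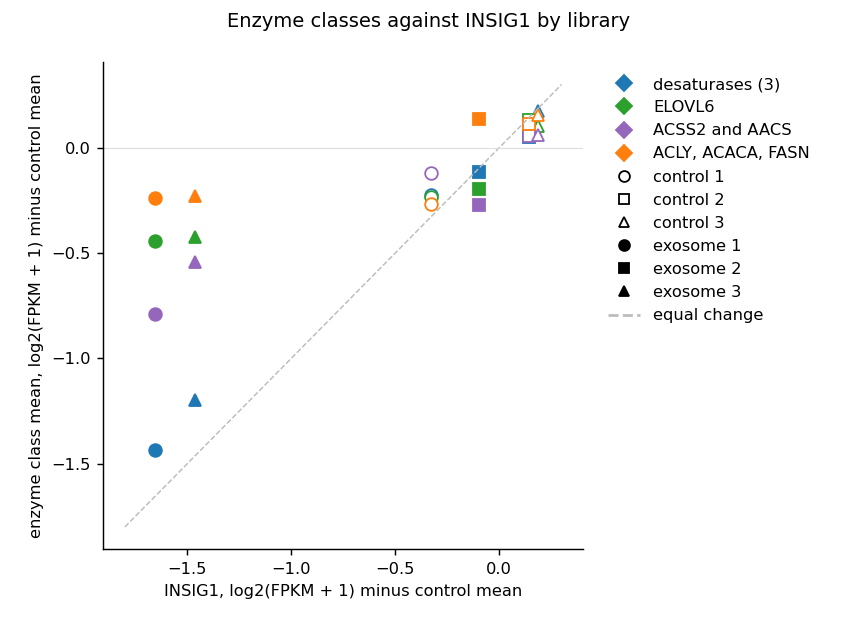
Class means of the enzymes against INSIG1, both as log2(FPKM + 1) minus the control mean, with open symbols for control and filled symbols for exosome libraries and the marker shape giving the replicate. In exosome replicates 1 and 3 the desaturases lie nearest the dashed line of equal change, followed by ACSS2 and AACS, then ELOVL6, then ACLY, ACACA and FASN.

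The enzymes other than ACACA varied together across libraries, within groups as well as between them. Correlations of ACACA with the other genes of the set over the libraries ran from 0.053 with FADS1 to 0.375 with ELOVL6. Within groups ACACA stood apart less. After each group's mean was subtracted, its correlations ran from 0.295 with FADS1 to 0.865 with ELOVL6, against 0.670 between ELOVL6 and FADS1. Over the 6 libraries the Pearson correlation with INSIG1 was 0.997 for FADS2, 0.990 for FADS1 and 0.975 for SCD, and 0.957, 0.956 and 0.943 for ACSS2, ACLY and AACS. It was 0.906 for ELOVL6, 0.899 for FASN and 0.18 for ACACA. After each group's mean was subtracted, the correlation with INSIG1 was again 0.997 for FADS2 and 0.990 for FASN, while that of ELOVL6 was 0.794 and that of ACACA 0.481. ACSS2 and AACS followed each other at 0.998. These correlations describe 6 points that share library, depth and treatment, and they carry no test.

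The order of libraries within each group was the same for every gene at one end. Exosome replicate 2 was the highest exosome library for 10 of 10 genes, as it was for 36.2% of all genes tested. The mevalonate and sterol enzymes described below shared this order, such as MVK, at 11.7, 16.3 and 11.7 FPKM in exosome replicates 1, 2 and 3. Control replicate 1 was the lowest control library for 10 of 10, as it was for 37.0% of all genes. The summed FPKM of the 9 enzymes was 506.1, 622.9 and 670.7 in the controls and 374.4, 582.8 and 403.8 in the exosome libraries, so the sum of exosome replicate 2 lay above that of control replicate 1. The total FPKM of all genes ran from 721273 to 732922 in the controls and from 690258 to 711250 in the exosome libraries, with replicate 2 at 708280. The part of that lower total in these results was not tested.

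The genes outside the set whose profile over the 6 libraries was most like the mean profile of the 9 enzymes were an unnamed gene (ENSSSCG00000010748), BNIP3L, SGPL1, PYGO2 and ABHD14B, with Pearson correlations from 0.992 to 0.997. BNIP3L encodes a mitophagy receptor and SGPL1 the lyase that breaks down sphingosine phosphate. Their changes were small, from -0.21 for the unnamed gene to -0.13 for BNIP3L and PYGO2. Nearest to INSIG1 were HMGCS1, which makes HMG-CoA for cholesterol synthesis (correlation 0.999, log2 change -1.003), and ACAT2, a cytosolic thiolase (0.998, -0.43). GMPPB and SGPL1 were also among the 5 nearest, at 0.996 each, with log2 changes of -0.13 and -0.16.

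**Figure D4:**
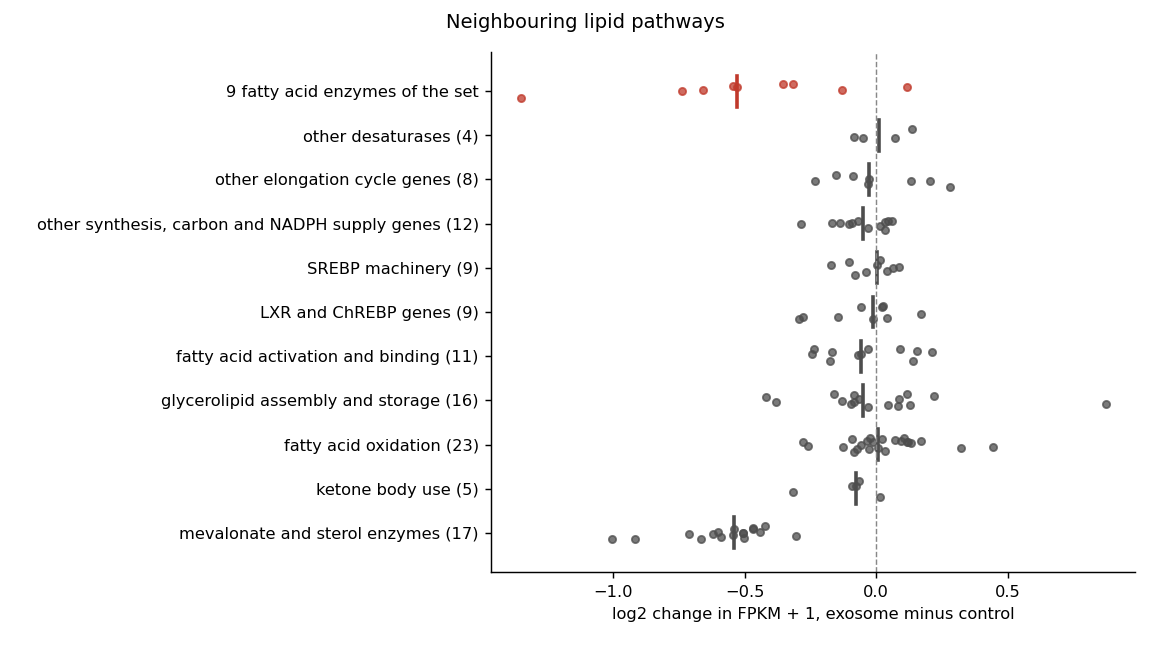
Log2 change, exosome minus control, of the 9 enzymes (red) and of the genes of 10 other lipid lists (grey), with 1 point per row of the table, a vertical bar at each median and the number of rows tested in parentheses. The medians of 9 lists lie between -0.08 and 0.01, while those of the 9 enzymes and of the mevalonate and sterol enzymes lie at -0.53 and -0.54.

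Lists of related lipid genes were examined to see how far the lower levels extended. The 10 lists named 140 genes, of which 111 had values, in 114 rows. In limma 0 of these rows passed an adjusted p of 0.05, while an unadjusted p under 0.05 was reached by 7 rows with a higher and 33 with a lower level, where 5.06% of all genes were higher and 7.5% lower. Of the 33, 17 were the mevalonate and sterol enzymes, all 17 of which had a negative log2 change, with a median of -0.54 (range -1.003 to -0.31), where 50.8% of all genes were negative. MVK and PMVK, the successive kinases of the mevalonate pathway, had log2 changes of -0.59 and -0.47, and TM7SF2, a sterol reductase, of -0.92 (limma, adjusted p from 0.215 to 0.234).

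The remaining desaturases with values did not share the lower levels, and SCD5 had no row under its symbol. FADS3, the third gene of the FADS cluster, was at 4.38, 4.00 and 3.70 FPKM in the controls and 4.46, 4.07 and 5.05 FPKM in the exosome libraries, a log2 change of 0.14 (limma, adjusted p = 0.586). All 4 rows of this list overlapped between groups, and the median log2 change was 0.01. DEGS1, a ceramide desaturase, and FADS6 were at log2 changes of 0.07 and -0.08 (limma, adjusted p = 0.669 and 0.705).

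Of 8 further genes of the elongation cycle, an unadjusted p under 0.05 was reached by 2 with a lower and 1 with a higher level, and the median was -0.03. ELOVL2, ELOVL5 and HACD1 had no row under these symbols and were not analysed here. TECR, the reductase that completes each round of elongation, was at 93.7, 88.2 and 91.0 FPKM in the controls and 70.2, 80.6 and 81.6 FPKM after exosomes (log2 change -0.23). ELOVL1, an elongase of saturated very long chains, had a log2 change of -0.15, and ELOVL4, which also makes very long chains, one of 0.28, in opposite directions. Groups did not overlap for any of the 3, which were named for the smallest p of their list, and none passed (limma, adjusted p from 0.284 to 0.323). Of all genes, 10.4% were lower and 8.29% higher without overlap.

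Genes that supply carbon and NADPH to synthesis had a median of -0.05 over 12 rows, 3 of them lower at an unadjusted p under 0.05. IDH1, a cytosolic source of NADPH, was at 166.0, 175.5 and 170.8 FPKM in the controls and 135.6, 151.8 and 133.3 FPKM after exosomes (log2 change -0.28; limma, adjusted p = 0.206). SLC25A1, the citrate exporter of mitochondria that feeds ACLY, and PGD, of the pentose phosphate pathway, had log2 changes of -0.14 and -0.10 (limma, adjusted p = 0.365 and 0.386). In all 3 genes the exosome libraries lay below the controls, replicate 2 included, as they did for 10.4% of all genes. The 3 were named for the smallest p of their list, which favours such a separation.

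Components of the SREBP machinery differed little, with a median of 0.0014 over 9 rows and 1 lower at an unadjusted p under 0.05. MBTPS2, a protease that releases SREBP, and NFYB, a subunit of its partner factor NF-Y, had log2 changes of -0.10 and 0.09 (limma, adjusted p = 0.599 and 0.583). The SREBF1, SREBF2 and INSIG2 genes had no row under these symbols and were not analysed here. Among genes of the LXR and ChREBP pathways, which also regulate fatty acid synthesis, the median was -0.01 over 9 rows. LPCAT3, which inserts polyunsaturated chains into phospholipids, had a log2 change of -0.28 (limma, adjusted p = 0.367), ABCG1, a sterol exporter, -0.29 (0.573) and MYLIP, a ubiquitin ligase, -0.15 (0.555).

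Genes of fatty acid activation, storage and oxidation differed in both directions. In the activation and binding list, an unadjusted p under 0.05 was reached by 1 of 11 rows upward and by 3 downward. ACSL1, an acyl-CoA synthetase listed as FACL2, was at 25.2, 24.9 and 24.5 FPKM in the controls and 29.9, 28.6 and 28.4 FPKM in the exosome libraries, without overlap, exosome higher, as for 8.29% of all genes (log2 change 0.21; limma, adjusted p = 0.234). DBI, an acyl-CoA binding protein, and SLC27A4, a fatty acid transporter, had log2 changes of -0.18 and -0.24 (limma, adjusted p = 0.290 and 0.301).

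In glycerolipid assembly and storage, the unadjusted p was under 0.05 for 3 of 16 rows upward and 2 downward. PLIN2, the coat protein of lipid droplets, listed as ADFP, was at 29.5, 21.9 and 21.5 FPKM in the controls and 69.5, 23.5 and 54.6 FPKM in the exosome libraries, a log2 change of 0.87 with a standard error of 0.35 (limma, adjusted p = 0.372). Exosome replicates 1 and 3 were above every control and replicate 2 lay within the control range, the mirror image of FADS2. LPIN1, a phosphatidate phosphatase, had the most negative change of the list, at 6.13, 7.77 and 8.36 FPKM against 4.17, 7.64 and 4.47 FPKM (log2 change -0.42; limma, adjusted p = 0.423). PLIN2 and LPIN1 were picked once their values were known, and in limma without exosome replicate 2, where 2.74% of all genes passed, their adjusted p-values were 0.0122 and 0.0476. The library left out was the exosome library nearest the controls for both genes, so these p-values lend them no support.

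By the smallest p, the same list was led by LIPE, a lipase, with a log2 change of -0.38, GPAM, which begins glycerolipid synthesis, with 0.22, and DGAT1, which completes triglycerides, with -0.16. Groups did not overlap for these 3 genes, where 10.4% of all genes were lower and 8.29% higher without overlap, and none passed (limma, adjusted p from 0.234 to 0.336).

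Fatty acid oxidation had a median of 0.0057 over 23 rows, and the unadjusted p was under 0.05 for 2 rows upward and 3 downward. Both upward rows were labelled CPT1A, the entry step of long-chain fatty acids into mitochondria. One (ENSSSCG00000012881) was at 16.6, 16.9 and 17.2 FPKM in the controls and 27.4, 18.4 and 25.2 FPKM in the exosome libraries, without overlap, as for 8.29% of all genes (log2 change 0.45; limma, adjusted p = 0.284). The other (ENSSSCG00000012880, picked once its values were known) had 36.2, 33.9 and 31.6 FPKM in the controls and 47.4, 33.3 and 48.9 FPKM in the treated ones (log2 change 0.32; limma, adjusted p = 0.389). In limma without exosome replicate 2, the exosome library nearest the controls in both rows, their adjusted p-values were 0.0195 for ENSSSCG00000012880 and 0.0086 for ENSSSCG00000012881. In that run 2.74% of all genes passed, and 0 passed without exosome replicate 1 or 3, so these p-values lend the rows no support. PPARD, a nuclear receptor for fatty acids, and ACAA2, a thiolase of oxidation, were at log2 changes of -0.26 and -0.28 (limma, adjusted p = 0.234 and 0.336). Of 5 rows of ketone body use, BDH1 was lower at an unadjusted p under 0.05, with a log2 change of -0.32 (limma, adjusted p = 0.284), and ACAT1, a mitochondrial thiolase, was at -0.09 (limma, adjusted p = 0.558).

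**Figure D5:**
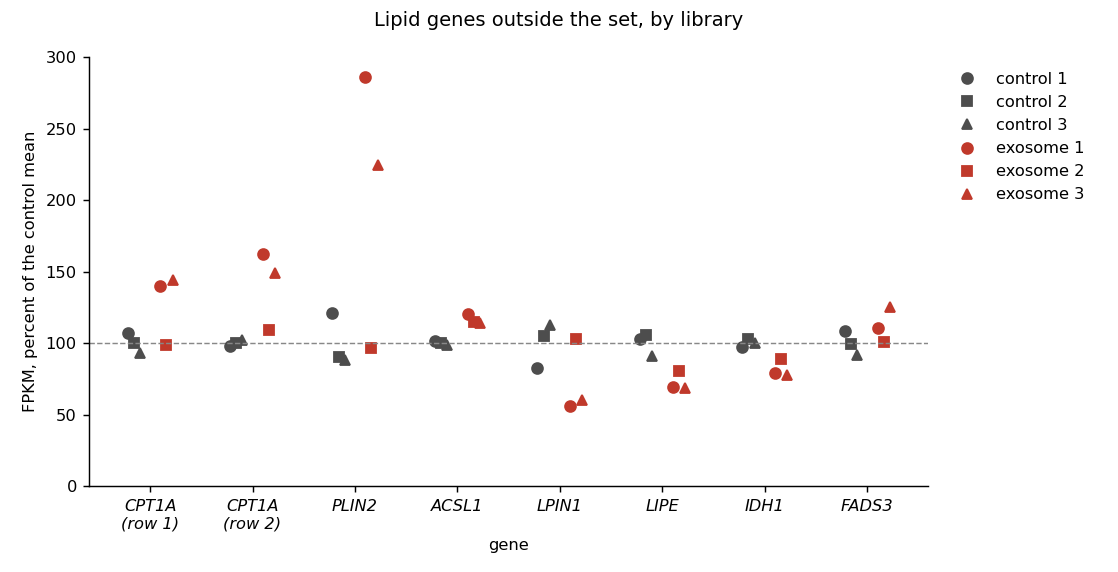
FPKM of each library as a percentage of the control mean (dashed line at 100) for 8 rows of lipid genes outside the set, with grey for control and red for exosome libraries; the CPT1A rows are ENSSSCG00000012880 (row 1) and ENSSSCG00000012881 (row 2). PLIN2 reaches 286.0% and 224.9% in exosome replicates 1 and 3 and 96.9% in replicate 2, while LPIN1 is at 56.2%, 60.2% and 103.0% in replicates 1, 3 and 2.

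The labelled cell type was checked against marker genes. Of 8 epithelial markers 7 had values, with KRT19 and KRT8 the highest at 3193 ± 88.8 and 3037 ± 48.0 FPKM in the controls. CDH1 had no row under its symbol. The epithelial markers summed to 9203 to 9532 FPKM in the controls and 8133 to 8941 FPKM in the exosome libraries, with replicate 2 at 8573, between the others. KRT8, CLDN4, MUC1 and ELF3 were lower without overlap, as were 10.4% of all genes, while KRT18, KRT19 and EPCAM overlapped between groups. Of 8 markers of stroma and fibroblasts 5 had values, led by THY1 (listed as CD90) at 2328 ± 93.7 FPKM and VIM at 556.7 ± 52.4 FPKM, while PDGFRB, DCN and LUM had no row. Their sum was 2788 to 3042 FPKM in the controls and 2274 to 2494 FPKM in the exosome libraries. This separation reflects THY1, whose groups did not overlap, while VIM, COL1A1, COL1A2 and COL3A1 overlapped. COL1A1 varied widely within groups, at 2.48, 30.0 and 14.7 FPKM in the controls and 20.4, 6.27 and 0.887 FPKM in the exosome libraries. Exosome replicate 2, where FADS2 stood at 83.2% of the control mean, had a stromal sum of 2467 FPKM, between those of replicates 1 and 3.

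Markers of other cells were scarce. Among leukocyte markers CD14 and CD68 had values (2 of 6 symbols), summing to 9.78 to 11.8 FPKM in the controls and 8.06 to 11.12 FPKM in the exosome libraries, and PTPRC had no row. The 1 of 5 endothelial markers with values, KDR, was at 1.26 to 1.96 FPKM in the controls and 0.968 to 1.16 FPKM in the exosome libraries. No marker of adipocytes (0 of 5) or male germ cells (0 of 6) had a row. The part of these shifts in the results of the fatty acid set was not tested.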

How the data were processed

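Sequencing libraries of 6 samples, 3 per group, were used. Per the submitters' processing notes, bcl2fastq 1.8.4, TopHat and Cufflinks were used with the Sscrofa11.1 build; their other versions, annotation and filters were not given in the sources used here. Deposited values were read as the authors' FPKM, judging by the tool named and by the values, because the header names no unit. The table held no counts and no zeros, so depth is unknown, and a gene without reads in a library may be missing from it.

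Libraries were grouped by title. Values were transformed as log2(FPKM + 1), which understates changes of low genes. Genes averaging 1 FPKM or more (10846) were tested in R 4.3.3 with limma 3.58.1, two-sided, with an intensity trend and 4 residual degrees of freedom, and p-values were adjusted by Benjamini-Hochberg over all of them. All 10 genes of the set were among them. The script was tested on simulated data. Class and list values are means or medians of log2 changes. Standard errors of genes are limma's, and those of class means come from the spread of libraries within groups.

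The genes of the set, the lists and the tests were chosen with earlier results of these data known. Named were the set itself, the 3 genes of each list with the smallest p, the 5 most like the enzymes or INSIG1 over the 6 libraries, and the 2 most abundant markers of each cell type. The separate values of 3 such genes are not reported here. List genes were matched by symbol or, for 18 rows, through the reference table by identifier. The fit was repeated with pseudocounts of 0.1 and 5, with no filter or a minimum mean of 5 FPKM, with quantile or upper quartile scaling, without the trend or with robust estimation, with a replicate block, and with libraries left out. Python 3.11.15 and matplotlib 3.10.9 drew the figures.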

Additional observations from a re-analysis of the deposited data

How the results depend on the processing

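The mean log2 changes of both enzyme classes and their difference kept their direction under every alternative run in which they could be computed. With single libraries or replicate pairs left out they ranged from -1.32 to -0.66 for the desaturases, from -0.41 to -0.19 for the synthesis enzymes and from -0.93 to -0.47 for the difference. With the other ACACA row, chosen after seeing the data, the last 2 were -0.30 and -0.61. The synthesis mean could not be computed at a minimum mean of 5 FPKM, which removes ACSS2. The log2 change of ACSS2 was -0.78 with a pseudocount of 0.1 and -0.23 with one of 5. Over left-out libraries and pairs, the count of genes passing in limma ran from 0 to 297 over all genes (297 or 2.74% of genes without exosome replicate 2, 58 when both groups lost replicate 2, 1 without control replicate 3, and 1 when both groups lost replicate 3) and from 0 to 24 over the related lists (24 without exosome replicate 2, 16 when both groups lost replicate 2). Of those 24, 17 were mevalonate and sterol enzymes. The median of the further elongation genes turned positive with quantile normalization (0.0032), without control replicate 3 (0.0033) and when both groups lost replicate 3 (0.00087), with a lowest value of -0.069 over left-out libraries, and the cause was not tested. With the replicate number as a block, 0 genes passed and the mean log2 changes stayed at -0.92, -0.28 and -0.63. Deviations from the group means correlated at 0.16, 0.14 and -0.07 for same-numbered libraries 1, 2 and 3, so the libraries share a number and no shown pairing.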
